A study of Arabidopsis thaliana with 16 samples.

Results

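The small RNAs pulled down with AGO9 from shoot apices of Arabidopsis thaliana at 7 days were compared with those pulled down with green fluorescent protein (GFP) alone. The comparison used the 4 libraries that carry these labels, 2 of the AGO9 immunoprecipitate (IP) and 2 of the GFP-only IP, out of 16 libraries in all. The AGO9 line carried GFP-AGO9 driven by the AGO5 promoter, and the control line carried GFP driven by the 35S promoter, both in col-0. The promoters therefore differed between IP and control, and AGO9 was expressed from the promoter of another ARGONAUTE gene. Whether the endogenous AGO9 gene was intact in the GFP-AGO9 plants is not stated. All 4 libraries came from shoot apices of soil-grown plants 7 days after germination under 16 h light and 8 h dark. Input RNA of the same age, from the GFP-AGO5 line (replicate 1) and the GFP-AGO9 line (replicate 2), served as a second reference. The labels do not say whether the replicates were separate plants, so the spread between libraries behind the p-values may be technical. In the main limma fits below, that spread was pooled over all 16 libraries in 8 groups, not taken from these 4 alone. Small RNA reads do not measure marker mRNAs, so the tissue label was not checked against markers.

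ARGONAUTE proteins bind small RNAs and use them to find matching transcripts. In Arabidopsis, AGO1 carries mostly 21 nt microRNAs (miRNAs) that begin with uridine. The AGO4 group, which includes AGO6 and AGO9, carries mostly 24 nt small interfering RNAs that begin with adenosine. These are made from transposable elements (TEs) and other repeats by RNA polymerase IV, RDR2 and DCL3, and they direct DNA methylation to the matching DNA. AGO9 is best known from ovules, where it limits the number of cells that take on a germline fate.

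The mature sequences of miRNAs from loci with more or fewer reads in the AGO9 IP are given here, since the results below turn on these loci. They are RNA from RefSeq on the TAIR10.1 build, with the seed (bases 2 to 8) in capitals. The first group came from loci with an excess of 24 nt reads in the AGO9 IP over the GFP-only IP.
miR829-3p.1: aGCUCUGAuaccaaaugauggaau
miR8121: aAAGUAUAaugguuuagugguuug
miR5662: aGAGGUGAccauuggagaug
The second group came from loci with fewer reads in the AGO9 IP than in the GFP-only IP.
miR163: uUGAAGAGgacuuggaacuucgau
miR158a-3p: uCCCAAAUguagacaaagca
miR845a: cGGCUCUGauaccaauugaug
No seed is shared among the 6, which were chosen with their values known. The 3 sequences of the first group begin with adenosine, but the 10 loci that were higher at 24 nt were mixed: in 5 the mature miRNAs begin with adenosine, in 1 each with uridine, cytidine and guanosine, and in 2 with several bases. The table counts reads per locus, so the sequences of the 24 nt reads were not measured, and miR5662 is itself 20 nt long. The seed of miR829-3p.1 lies inside a run of 13 bases, gcucugauaccaa, that also occurs in miR845a, shifted by 1 base. That run is held by 3 of the 428 annotated mature miRNAs (miR829-3p.1, miR845a and miR845b). Of the 428, 11 are 24 nt long, miR829-3p.1, miR8121 and miR163 among them. miR829-3p.1 lies at chr1:11834094-11834117 on the minus strand, miR163 at chr1:24884359-24884382 on the plus strand, and miR845a at chr4:12217457-12217477 on the minus strand.

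The AGO9 libraries held 55823046 and 99594348 read assignments to features, the GFP-only libraries 13810392 and 23173991, and the inputs 15459547 and 14495665. Values are RPM, the reads of a feature divided by all assigned reads of its library and scaled to 1000000. A floor of 3 reads equals 0.0537 and 0.0301 RPM in the AGO9 libraries and 0.217 and 0.129 RPM in the GFP-only libraries, and it covers counting error only. Neither replicate pair agreed within sampling noise (chi-square per degree of freedom 327.8 for AGO9 and 303.7 for GFP alone). A read could be assigned to several copies or overlapping features, and 5673 of the 65385 features shared all their reads with another feature. Replicates also differed in their makeup: miRNA loci held 71873.9 and 5053.52 RPM in the AGO9 libraries, and plastid genes 293230 and 65441.8 RPM in the GFP-only libraries.

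The AGO9 IP consisted mainly of 24 nt reads, whereas 21 nt reads were the most abundant size in the GFP-only IP. Reads of 24 nt made up 76.4% and 89.8% of the 2 AGO9 libraries, against 21.3% and 17.6% of the GFP-only libraries. Reads of 21 nt made up 13.4% and 3.68% of the AGO9 libraries, against 40.6% and 53.0% of the GFP-only libraries. The groups did not overlap at either size, and the inputs lay between them, at 36.4% ± 0.968 (SD, n = 2) for 24 nt. The mean 24 nt share was 83.1% ± 9.50 (SD, n = 2) in the AGO9 IP and 19.5% ± 2.60 in the GFP-only IP, a difference of 63.6 percentage points. With 2 libraries against 2, an exact permutation test cannot go below p = 0.3333 (two-sided), which is the value obtained. When features with at least 1 RPM were counted once per size, in place of summing reads, the difference was 32.2 points. More tissue with AGO5 promoter activity, more AGO9 per cell and more small RNA per cell cannot be told apart in bulk libraries.

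**Figure D1:**
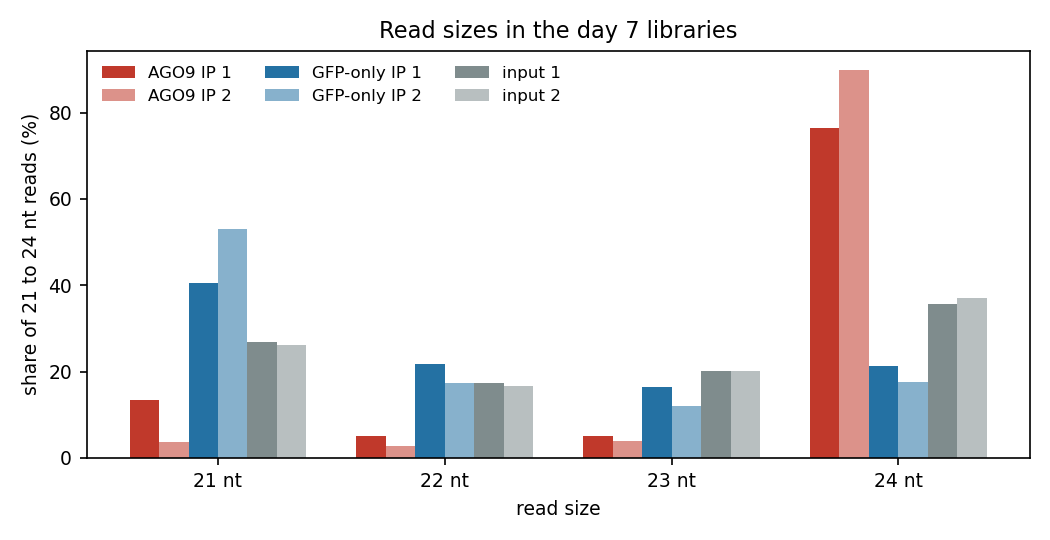
Share of 21, 22, 23 and 24 nt reads (%, y axis) in each day 7 library, with dark bars for replicate 1 and light bars for replicate 2. Bars at 24 nt stand at 76.4% and 89.8% for AGO9, above both inputs and both GFP-only libraries.

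The change in size differed between classes of feature. Among reads at TEs, 24 nt reads made up 88.2% and 92.3% in the AGO9 libraries, against 35.4% and 32.8% in the GFP-only libraries and 46.3% and 47.9% in the inputs. At protein-coding genes the shares were 77.1% and 94.1% in the AGO9 IP, against 19.9% and 17.1% with GFP alone. At pseudogenes they were 59.4% and 94.9%, against 12.9% and 4.19%. In these 3 classes every AGO9 library lay above every GFP-only library. Reads at rRNA, tRNA and plastid genes kept a broad size distribution in the AGO9 IP, with 24 nt shares of 22.9% and 22.8% at rRNA genes, 19.9% and 21.6% at tRNA genes and 24.8% and 26.9% at plastid genes. Reads at miRNA loci stayed at 21 nt, which made up 95.2% and 92.5% of them in the AGO9 IP.

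At single features, 24 nt reads were compared with limma on log2(RPM + 1), with Benjamini-Hochberg (BH) adjustment at 0.05. Of 14054 features tested, 11548 were higher in the AGO9 IP than with GFP alone (82.2%) and 179 were lower (1.27%), and the median log2 difference was 2.57. This scale understates the difference of features with few reads. The features tested had a mean of at least 1 RPM over all 16 libraries, so high values in the AGO9 IP helped features to be tested. With no filter, 17298 of 50424 features were higher and 446 lower, with a median of 0.080. Shares and medians of all features below are those of the tested features. The counts in each direction depended on the scaling. Each library's own total, which RPM uses, is one choice. Relative to the 24 nt reads of each library alone, 5005 features were higher and 676 lower (median 1.44). With each library centred on its median over features with reads in every day 7 library, 1609 were higher and 4304 lower (median -0.32). The edgeR quasi-likelihood test on recovered reads gave 719 higher and 826 lower (median 0.35), and DESeq2 gave 2056 higher and 1233 lower (median 0.40). Each feature below is therefore described by its RPM difference and by its place relative to the median of all features.

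**Figure D2:**
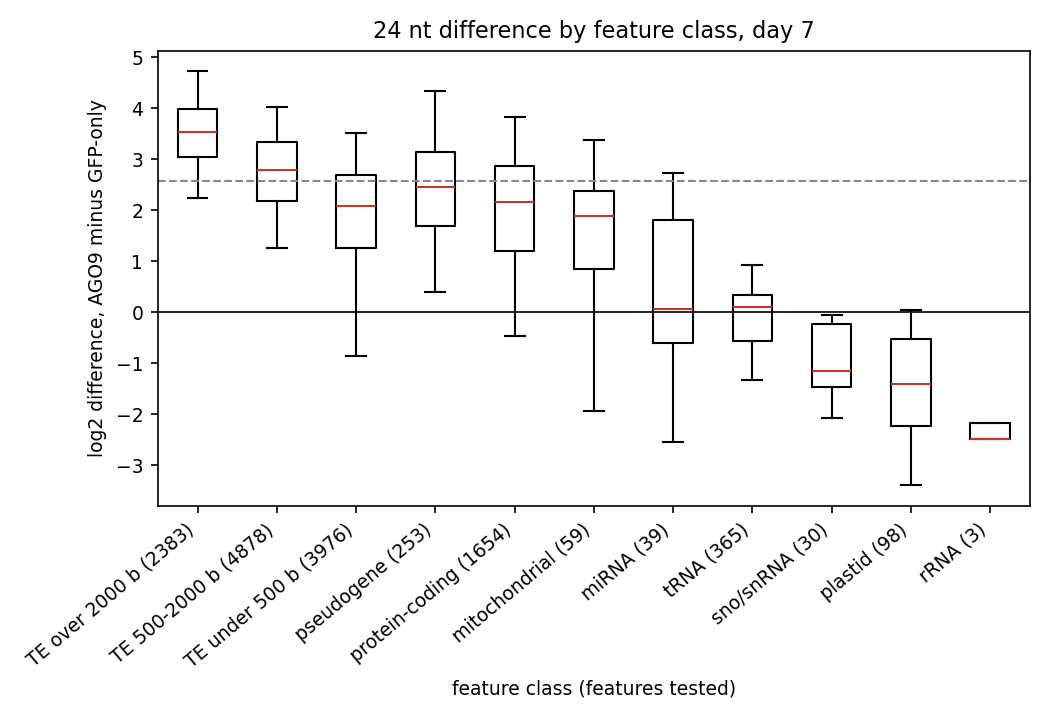
Log2 difference of 24 nt reads, AGO9 IP minus GFP-only IP (y axis, from log2(RPM + 1)), for features of each class with the number tested in brackets. Boxes are quartiles, red lines medians, whiskers the 5th to 95th percentile, and the dashed line is the median of all tested features, 2.57. TEs over 2000 bases have the highest median, 3.54, and rRNA genes the lowest, -2.48.

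TEs were the main source of the 24 nt excess. Summed over the 31189 annotated TEs, 24 nt reads came to 689938 and 823236 RPM in the AGO9 libraries, and to 83074.4 and 118995 RPM in the GFP-only libraries, a 7.49-fold difference of the means. Both AGO9 libraries also exceeded the inputs, at 266900 and 286169 RPM, while both GFP-only libraries lay below them. Of the 11548 features called higher, 9858 were TEs (85.4%), 1199 protein-coding genes, 214 pseudogenes, 229 other noncoding genes, 38 mitochondrial genes and 10 miRNA loci. Among the 11237 TEs tested, 9858 were higher (87.7%, beside 82.2% of all features) and 25 lower, and their median difference was 2.71 on the log2 scale beside 2.57 for all features. TEs made up 90.3% and 91.7% of the 24 nt reads of the AGO9 libraries and 38.98% and 67.5% of those of the GFP-only libraries. The difference of the means was 37.7 points. It was 1.98 points when each feature with at least 1 RPM of 24 nt reads was counted once (exact permutation p = 0.667). Of the 11548 features, 6073 were also higher in the AGO9 IP than in the input and 1022 had no read in either GFP-only library.

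The input showed where GFP alone stood. Against the input, 6092 of the 14054 features were higher in the AGO9 IP (43.3%) and 440 lower (3.13%), with a median of 1.20 on the log2 scale. The GFP-only IP had 20 features above the input (0.142%) and 6316 below it (44.9%), with a median of -1.33. The excess of AGO9 over GFP alone was therefore larger than its excess over the input at the median feature. Both comparisons share the input libraries, and they were run on the RPM scale alone.

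The excess differed with the length of the element. Of 2383 tested TEs over 2000 bases, 2368 were higher (99.4%) and 0 lower, with a median of 3.54. Of 4878 TEs of 500 to 2000 bases, 4591 were higher (94.1%) and 1 lower, with a median of 2.78. Of 3976 TEs under 500 bases, 2899 were higher (72.9%) and 24 lower, with a median of 2.09. Beside these, 82.2% of all features were higher and 1.27% lower, so short elements were below the background share of higher calls. The long elements hold many autonomous retrotransposons and their remnants near the centromeres, and the short ones include fragments and small DNA transposons along the arms. Summed reads at 24 nt, which do not depend on the added constant, were 12.7-fold higher at TEs over 2000 bases, 7.10-fold at 500 to 2000 bases and 1.81-fold under 500 bases. In each length class the AGO9 and GFP-only sums did not overlap. Short elements also hold fewer reads each, and the medians of log2(RPM + 1) understate their difference more. The order of the 3 medians was the same under all 5 scalings, but the median of short elements was -0.80 after median centring, with 82 higher and 1794 lower. Long elements kept a median above 0 under each of the 5, from 0.57 with edgeR to 3.54.

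Position gave a smaller contrast. TEs in 200000-base bins at least 50% covered by TEs, which mark the regions around centromeres, had a median of 2.98. Of 5324 such TEs tested, 4817 were higher (90.5%) and 16 lower. TEs in the other bins had a median of 2.49, with 5041 of 5913 higher (85.3%) and 9 lower. Of all features, 82.2% were higher and 1.27% lower, so the share in the other bins was near the background. The TE-rich bins had the higher median under all 5 scalings, and no test of the difference between the bins was made. The 895 tested TEs that overlap a gene had a median of 2.72, with 816 higher (91.2%) and 0 lower.

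The features with the largest log2 differences at 24 nt were 3 long TEs and a pseudogene, all in TE-rich bins. AT3TE59535, an element of 15347 bases at chr3:14519912-14535258 on the plus strand, holds the RefSeq pseudogenes AT3G42400, AT3G42410 and AT3G42420 and had 172.2 and 238 RPM in the AGO9 libraries and 1.88 and 3.54 RPM in the GFP-only libraries. Its log2 difference was 5.81 (SE 0.60, limma adjusted p = 7.90e-06), and 2.95 with edgeR, which ended the call (adjusted p = 0.0527). AT3TE58960 (chr3:14365788-14378082, minus strand) had 181 and 292 RPM against 4.49 and 2.59 RPM, and AT5TE39905 (chr5:10972236-10976403, minus strand) had 126 and 217 RPM against 3.26 and 1.73 RPM. Their log2 differences of 5.70 and 5.61 remained past the threshold in every alternative run. The pseudogene AT1G42570 (chr1:15988784-15990469, plus strand) had 51.3 and 69.6 RPM against 0.0724 and 0.259 RPM, both GFP-only values resting on very few reads (log2 difference 5.71, limma adjusted p = 2.92e-05). All 4 were also higher in the AGO9 IP than in the input, by 2.38 to 3.40 on the log2 scale. None passed the test against the AGO5 IP of the same age. In the AGO9 IP, 96.0% to 96.4% of their reads were 24 nt, against 7.81% to 32.5% with GFP alone. The 4 were picked by their 24 nt difference, so this contrast is not separate evidence. The 7.81%, at AT1G42570, rests on very few reads.

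Summing the 4 sizes brought up other features. AT2TE09640, a TE of 4614 bases, had 41.1 and 75.9 RPM in the AGO9 libraries and 1.38 and 0.0432 RPM with GFP alone (log2 difference 5.18, SE 0.51, limma adjusted p = 7.64e-05). The pseudogene AT2G13145 had 26.2 and 35.8 RPM against 0.217 and 0.0432 RPM, a log2 difference of 4.81. The protein-coding gene AT4G08370 had 69.0 and 77.1 RPM against 3.19 and 0 RPM (log2 difference 5.18, limma adjusted p = 0.00971), and this call was lost with edgeR, with DESeq2 and without GFP-only replicate 2 (log2 difference 4.14). AT1TE22710 had 32.9 and 94.9 RPM and no read in either GFP-only library, at least 369-fold above a floor of 3 reads per library. Its call (limma adjusted p = 0.0289) was lost on leaving out any of the 4 libraries. Unlike the long TEs, it was not above the input, where it had 60.4 and 122 RPM.

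AT1TE22710 is a simple repeat, and its sequence is shown because it is unlike the long elements. The element spans chr1:7025035-7025356 on the plus strand, 322 bases, of which 291 are TTC repeated 97 times in a row. Its last 60 bases, from chr1:7025297-7025356, show the end of the repeat in lower case and the sequence after it in capitals.
AT1TE22710 end: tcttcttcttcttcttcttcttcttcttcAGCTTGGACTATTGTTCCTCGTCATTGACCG
Of the tested TEs, 3 consisted of this unit over more than 60% of their length. At 24 nt, AT1TE22710 had 23.8 and 79.4 RPM and AT5TE65910 had 6.61 and 25.99 RPM, with no read in either GFP-only library (log2 differences 5.48 and 3.84). The third, AT4TE10930, had 0.681 and 2.74 RPM against 0.434 and 0 RPM and did not pass the test. In all 3 the second AGO9 library was the higher one. How reads of so simple a sequence were placed among its copies is not given in the sources used here.

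The most abundant 24 nt features of the AGO9 IP were 4 annotated genes rather than TEs. AT2G08986 (chr2:3618058-3626460) had 12236 and 13190 RPM in the AGO9 libraries and 1188 and 1623 RPM in the GFP-only libraries. AT1G40104 had 7444 and 6962 RPM against 642 and 806 RPM, and AT1G39070 had 5900 and 8232 RPM against 354 and 809 RPM. AT2G07981 had 3429 and 3826 RPM against 330 and 461 RPM. Their log2 differences were 3.19 to 3.70, above the 2.57 of the median feature, and 94.8% to 96.0% of their AGO9 reads were 24 nt. With edgeR the differences were -0.11 at AT2G08986, -0.086 at AT2G07981, 0.030 at AT1G40104 and 0.33 at AT1G39070, none above the 0.35 of the median feature and none called. Against the input none of the 4 passed the test, with log2 differences from 0.88 to 1.13 (limma adjusted p = 0.0549 to 0.157). These lay below the 1.20 of the median feature against the input. AT1G39070 was the gene of the 4 with the largest excess over the AGO5 IP, a log2 difference of 1.73 (limma adjusted p = 0.00723).

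Protein-coding genes had lower medians than TEs on the RPM scale, but higher ones on recovered reads. Of 488 tested protein-coding genes that overlap a TE, 81.4% were higher and 6 genes lower (median 2.221), and of 1166 without a TE, 68.8% were higher and 47 genes lower (median 2.12). Beside the 82.2% of all features that were higher, the first share was near the background and the second below it. The difference between the groups of genes was not tested. With edgeR the medians were 0.82 and 0.82, against 0.37 for TEs, and with DESeq2 they were 0.74 and 0.63, against 0.44 for TEs. FWA, a homeobox gene silenced by small RNA-directed methylation of repeats at its start, had 4.23 and 6.26 RPM of 24 nt reads in the AGO9 IP and 0 and 0.345 RPM with GFP alone. The log2 difference was 2.41 (SE 0.38, limma adjusted p = 0.000114), near the median of all features, and -0.48 after median centring, and the call was lost with edgeR (1.54) and DESeq2 (1.57). SDC, another such gene, had 1.74 and 1.96 RPM against 0 and 0 RPM and was too low to be tested. Of 253 tested pseudogenes, 214 were higher (84.6%, near the 82.2% of all features) and 4 lower, with a median of 2.44.

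**Figure D3:**
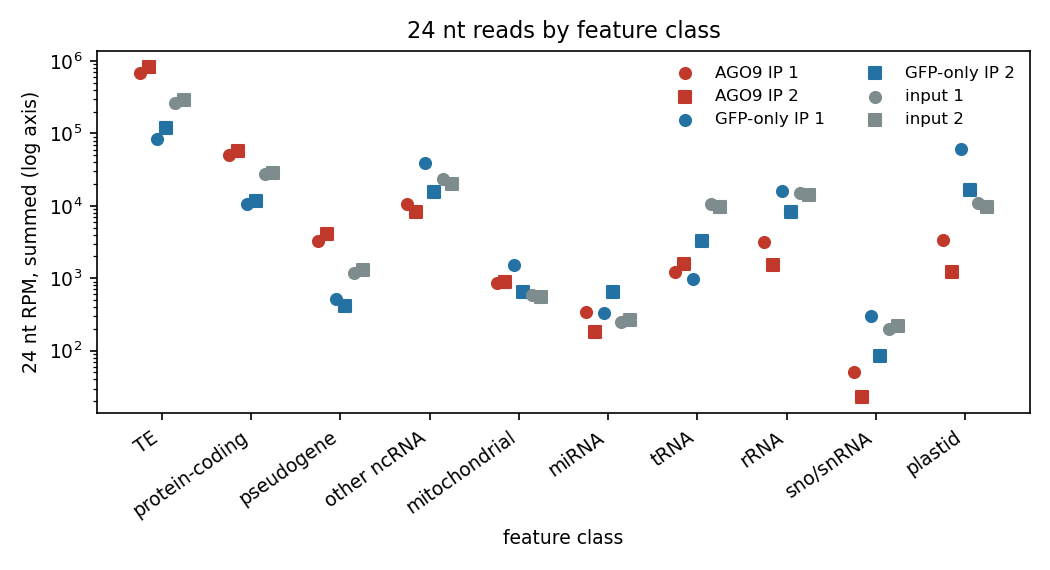
Summed 24 nt RPM (log axis) per feature class in each day 7 library, with circles for replicate 1 and squares for replicate 2. AGO9 libraries lie above GFP-only libraries at TEs, protein-coding genes and pseudogenes, and below them at rRNA and plastid genes.

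Reads from ribosomal, plastid and small structural RNAs were more abundant with GFP alone than with AGO9. The 4 annotated rRNA genes summed to 3188.84 and 1540.82 RPM of 24 nt reads in the AGO9 libraries and to 16277.6 and 8163.42 RPM in the GFP-only libraries. All 3 that were tested were lower at 24 nt, and they were lower under all 5 scalings. For AT2G01010, an 18S rRNA gene, the values were 1177 and 608 RPM against 7206 and 3100 RPM (log2 difference -2.48, SE 1.08, limma adjusted p = 0.0472). Its call was lost on leaving out any of the 4 libraries, with log2 differences from -3.09 to -1.87.

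Plastid genes summed to 3329.34 and 1234.37 RPM of 24 nt reads in the AGO9 libraries and to 60499.2 and 16814.5 RPM in the GFP-only libraries, 16.9-fold higher with GFP alone. Of 98 tested, 49 were lower and 0 higher, where 1.27% of all features were lower, with a median of -1.41. Without AGO9 replicate 2, 11 of the 98 were lower, and without GFP-only replicate 1, 23 were. ATCG00920 and ATCG01210 are copies of the plastid 16S rRNA gene in the inverted repeat, with the same 24 nt values in these libraries. Each had 323 and 106 RPM against 19557 and 1841 RPM. Both copies count in the plastid sum, so they make up most of its 60499.2 RPM in the first GFP-only library. The 16.9-fold difference thus rests largely on this gene in that library, and a sum without the 2 copies was not taken. The log2 difference of -5.01 (SE 1.49, limma adjusted p = 0.00767) was -3.31 without GFP-only replicate 1 and -4.21 without AGO9 replicate 2, and passed in neither case. LHB1B1, a nuclear gene for a light-harvesting chlorophyll protein, had 10.9 and 2.68 RPM against 125 and 71.0 RPM. Its log2 difference of -3.84 (SE 0.84, limma adjusted p = 0.00110) held in every alternative run. Only 23.4% of its reads in the AGO9 IP and 24.6% in the GFP-only IP were 24 nt. Such transcripts are abundant in green tissue.

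The median transfer RNA gene changed little on the RPM scale. Of 365 tested, 27 were lower (7.40%, beside 1.27% of all features) and 0 higher, where 82.2% of all features were higher. The median was 0.09, with a range from -2.19 at AT1G07760 to 0.99 at AT1G57310. The 27 calls became 0 without AGO9 replicate 2 or without GFP-only replicate 2, 3 without AGO9 replicate 1 and 46 without GFP-only replicate 1. Other scalings gave from 65 lower, relative to each size's own total, to 365 lower after median centring, and DESeq2 gave 7 higher beside 137 lower. Small nucleolar and nuclear RNA genes had a median of -1.16, with 4 of 30 lower (13.3%) and 0 higher, beside the same shares of all features. Both medians lay below the 2.57 of all features, as those of rRNA and plastid genes did.

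Mitochondrial genes were divided. Of 59 tested, 38 were higher (64.4%, below the 82.2% of all features) and 4 lower at 24 nt, with a median of 1.88 beside 2.57 for all features. ATMG01050 had 31.5 and 41.5 RPM in the AGO9 libraries and 2.61 and 1.17 RPM with GFP alone (log2 difference 3.73, SE 0.75, limma adjusted p = 0.000639), and 93.4% of its AGO9 reads were 24 nt. ATMG00470 had 7.85 and 4.91 RPM against 34.8 and 24.5 RPM (log2 difference -2.06, limma adjusted p = 0.00499), with 38.2% of its AGO9 reads at 24 nt. Reads that match both the mitochondrial genome and its nuclear copy cannot be told apart in these values. After median centring 0 were higher and 29 lower (median -1.005), with edgeR 3 were higher and 10 lower (median -0.65), and with DESeq2 4 were higher and 14 lower (median -0.54).

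Of the 25 TEs that were lower, 21 were 51 to 71 bases long and shared a run of 16 bases, found after their values were seen. AT3TE58205, at chr3:14186235-14186298 on the minus strand, is shown as an example with the run in capitals.
AT3TE58205: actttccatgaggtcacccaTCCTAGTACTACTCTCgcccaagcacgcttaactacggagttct
AT3TE58205 had 38.5 and 37.5 RPM in the AGO9 libraries and 53.9 and 113 RPM in the GFP-only libraries (log2 difference -1.02, limma adjusted p = 0.0427). Across the 21, medians were 34.9 and 34.3 RPM with AGO9 and 52.8 and 111 RPM with GFP alone. Each AGO9 library lay below each GFP-only library at all of them. The 21 were picked by their call in this same comparison, and 172 of all 179 features called lower had no overlap. The lack of overlap is therefore not separate evidence. Of all tested TEs, 301 held the run, and of these 21 were lower and 0 higher, with a median log2 difference of -0.87, while 87.7% of all tested TEs were higher. In TAIR10.1 the run occurs 237 times on chromosome 3, 68 times on chromosome 5, 12 times on chromosome 4 and 1 time each on chromosomes 1 and 2. Neighbouring copies lay a median of 506 bases apart. The letters of the run and of the bases around it are those of plant 5S ribosomal RNA, read on the opposite strand, and the 5S genes of Arabidopsis lie in tandem arrays on chromosomes 3, 4 and 5. The deposited table lists these features as TEs, and whether they are 5S gene copies was not tested. The 4 rRNA genes annotated in the table do not hold the run, but they have the lengths of 18S and 5.8S genes. Since these elements share sequence, their reads are not independent measurements.

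At miRNA loci the 24 nt reads of some loci were higher and those of others lower. Of 39 miRNA loci tested at 24 nt, 10 were higher and 4 lower, where 82.2% of all features were higher and 1.27% lower, and the median was 0.06 beside 2.57. After median centring 1 was higher and 30 lower. MIR829 had the largest log2 difference. It had 28.6 and 18.0 RPM in the AGO9 libraries and 0.652 and 0 RPM with GFP alone, against 1.03 RPM in each input. The log2 difference was 4.21 (SE 0.80, limma adjusted p = 0.000406), and it was 1.32 after median centring (limma adjusted p = 0.0156). The call was lost with edgeR (log2 difference 2.93, adjusted p = 0.229) and with DESeq2 (2.95, adjusted p = 0.0748). Of the reads at MIR829, 97.3% were 24 nt in the AGO9 IP and 18.3% with GFP alone. The AGO5 IP of the same age had 0.164 and 0.136 RPM, so MIR829 was higher with AGO9 than with AGO5 too (log2 difference 4.37, limma adjusted p = 0.00209). The table counts reads per locus, so which of its 3 annotated mature sequences the reads came from was not measured. The 24 nt miR829-3p.1, shown above, is the single one of that length.

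The other 9 loci that were higher at 24 nt had smaller log2 differences. MIR8121, whose mature sequence is 24 nt, had 8.08 and 10.5 RPM against 0.579 and 0.518 RPM (log2 difference 2.73, SE 0.50, limma adjusted p = 0.000329). MIR5662 had 6.41 and 9.18 RPM against 0.507 and 0 RPM, a log2 difference of 2.82. MIR396a had 3.26 and 3.41 RPM and no read in either GFP-only library, at least 19.3-fold above the floor, and MIR5645d had 2.81 and 2.32 RPM, at least 14.8-fold above it. The remaining 5 were MIR5642a, MIR5643a, MIR5643b, MIR5644 and MIR5659, with log2 differences from 1.63 to 2.53. Of these 10 loci, all except MIR829 had a difference below 0 after median centring, where the median of all features was -0.32. At MIR396a 1.69% of the AGO9 reads were 24 nt. Its inputs had 4.20 and 5.38 RPM of 24 nt reads, above both AGO9 libraries. Against the input, MIR8121 (log2 difference 2.19, limma adjusted p = 0.00497) and MIR5644 (1.13, limma adjusted p = 0.0101) passed the test. The others in this paragraph did not, with log2 differences from -0.41 at MIR396a to 1.41 at MIR5659. Their excess is therefore shown over GFP alone and not over the input.

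**Figure D4:**
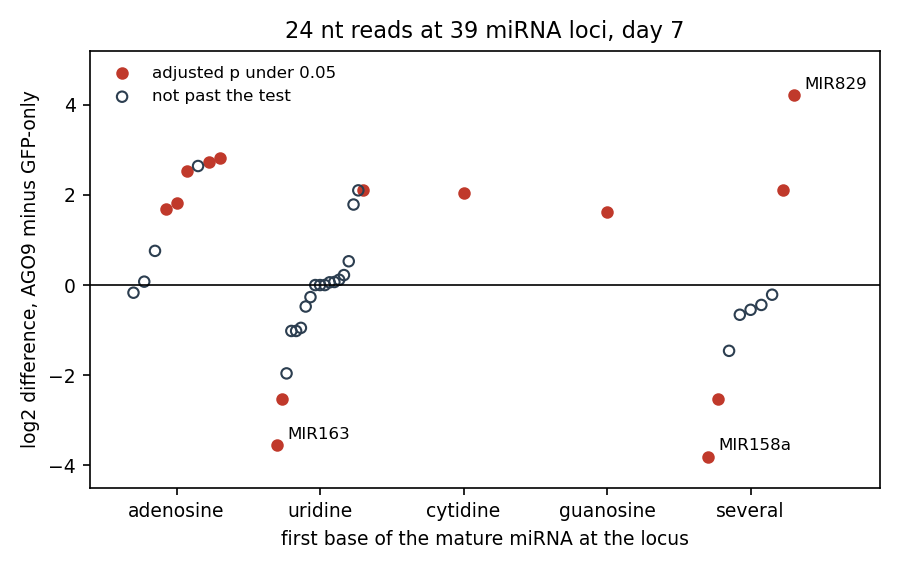
Log2 difference of 24 nt reads, AGO9 IP minus GFP-only IP (y axis), at the 39 tested miRNA loci by the first base of their mature miRNA (x axis; several, where mature miRNAs of a locus differ). Filled points passed the test, and MIR829, at 4.21, is the highest of the 39.

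Loci grouped by the first base of their mature miRNA had different levels. Summed over 65 loci whose mature miRNAs all begin with adenosine, 24 nt reads came to 86.8 and 85.7 RPM in the AGO9 libraries and to 15.2 and 13.5 RPM with GFP alone. Summed over 154 loci with uridine, they came to 167.4 and 57.2 RPM against 225 and 399.4 RPM. The adenosine sum was thus above the control in both AGO9 libraries and the uridine sum below it. Of the uridine sums, MIR163 alone held 78.8 and 3.996 RPM in the AGO9 libraries and 171.2 and 320 RPM with GFP alone. The lower uridine sum therefore rested on MIR163. With that locus taken off each sum, the AGO9 and GFP-only libraries overlapped, so the other uridine loci were not lower as a sum. The difference at MIR163 itself rested on AGO9 replicate 2, as given below. Of 9 adenosine loci tested, 5 were higher and 0 lower (median 1.83), and of 19 uridine loci, 1 was higher and 2 lower (median 0.00). The adenosine loci were below the 82.2% higher and the median of 2.57 of all features, and edgeR called 0 of the 9 and DESeq2 1 higher and 1 lower. The median of the adenosine loci was the higher one under all 5 scalings, but it was -1.05 after median centring and -0.48 with DESeq2.

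Not every locus with a 24 nt mature sequence had an excess. MIR163, with a 24 nt mature sequence that begins with uridine, had 78.8 and 3.996 RPM of 24 nt reads in the AGO9 libraries and 171.2 and 320 RPM with GFP alone. Its log2 difference of -3.56 (SE 1.56, limma adjusted p = 0.0490) rested on AGO9 replicate 2, without which it was -1.56 (adjusted p = 0.415). MIR404, with a 24 nt mature sequence that begins with adenosine, had 1.83 and 2.36 RPM against 0.217 and 1.73 RPM and did not pass the test (log2 difference 0.76, limma adjusted p = 0.0552). MIR158a, MIR403 and MIR157c were the other loci that were lower at 24 nt. MIR158a had 36.1 and 0.994 RPM against 67.7 and 210 RPM, and without AGO9 replicate 2 its log2 difference moved from -3.81 to -1.70 and no longer passed. MIR157c had 1.70 and 0.321 RPM against 8.47 and 11.6 RPM, and its log2 difference of -2.53 passed in every alternative run.

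With all sizes summed, 73 of the 153 tested miRNA loci were lower in the AGO9 IP, and 71 passed in neither direction. The 325 annotated miRNA loci summed to 173169 and 315034 RPM in the GFP-only libraries, above both AGO9 values given earlier. The first AGO9 library held far more of these reads than the second, so the size of the difference depends on the library. Beside the 73 lower loci 9 were higher, where 4.92% of all features were lower and 60.2% higher. Without AGO9 replicate 2, only 2 of the 153 were lower, and without GFP-only replicate 2, 9 were. Among 99 loci of conserved families, 88 were tested, of which 56 were lower and 0 higher (median -3.07). MIR158b had 1058 and 9.18 RPM against 1692 and 5567 RPM (log2 difference -4.89, limma adjusted p = 0.0157). Without AGO9 replicate 2 it was -1.54 (adjusted p = 0.150), and the call was also lost without GFP-only replicate 2 (-4.03) and with edgeR (-4.77). In the sum over loci and at MIR158b both AGO9 libraries lay below both GFP-only libraries, and the first AGO9 library was the closer one.

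MIR845a, which shares 13 bases with miR829-3p.1, went the other way from MIR829. Its mature miRNA matches the primer binding site of retrotransposons and is known from pollen. Over all sizes it had 7.11 and 0.693 RPM in the AGO9 libraries and 69.0 and 28.2 RPM with GFP alone (log2 difference -3.61, SE 0.95, limma adjusted p = 0.00676). It had no 24 nt read in any of the 4 libraries, and 94.7% of its AGO9 reads were 21 nt. The difference was -2.48 without AGO9 replicate 2 and -2.98 without GFP-only replicate 1, and neither passed. MIR839 and MIR822, which like MIR829 have been reported with AGO9, gave almost no reads. MIR839 had 0.305 and 0.0602 RPM over all sizes with AGO9 and 0 and 1.42 RPM with GFP alone, and MIR822 had none in any of these libraries.

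Trans-acting siRNA loci (TAS), whose 21 nt products are made after miRNA-guided cleavage, were lower over all sizes. The 8 loci summed to 11178.4 and 485.791 RPM in the AGO9 libraries and to 18326.6 and 37784.9 RPM with GFP alone. All 8 were lower, with a median log2 difference of -3.45. TAS1A had 2711 and 127 RPM against 4763 and 8603 RPM (log2 difference -3.44, SE 0.97, limma adjusted p = 0.00953). Here too the values rested on 1 library: without AGO9 replicate 2 the median was -1.25 and 2 of the 8 were lower, and without GFP-only replicate 2, 1 was. A fit to the 4 libraries alone also left 1 of the 8. At 24 nt alone, 0 of 6 tested TAS loci passed in either direction, while 1.27% of all features were lower and 82.2% higher. TAS1A then had 72.7 and 40.7 RPM against 24.8 and 47.0 RPM, with groups that overlap. AGO2, a target of miR403, had 1303 and 48.2 RPM over all sizes against 2524 and 4251 RPM (log2 difference -3.69, limma adjusted p = 0.0349). The call on AGO2 was lost with edgeR and on leaving out AGO9 replicate 2 (-1.33), GFP-only replicate 1 or GFP-only replicate 2. AT5G02330 had 252 and 6.17 RPM against 1142 and 1141 RPM (log2 difference -4.75, limma adjusted p = 0.0274), and 99.7% of its AGO9 reads were 21 nt. Without AGO9 replicate 2 its log2 difference was -2.18 (adjusted p = 0.281), and the call was also lost with edgeR (-5.24) and on leaving out either GFP-only library.

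Reads of 21, 22 and 23 nt gave no feature past the threshold with limma. At 21 nt, 0 of 6713 features were called (0% in either direction), with 1771 at an unadjusted p under 0.05 and a median log2 difference of -1.25. At 22 nt, 0 of 7325 were called (0%), with 1512 at an unadjusted p under 0.05 and a median of -0.86. At 23 nt, 0 of 8482 were called (0%), with 473 at an unadjusted p under 0.05 and a median of 0.15. On the recovered reads, edgeR called 11, 0 and 0 features higher and 0 lower at each of these sizes, and DESeq2 called 12, 164 and 391 higher and 0, 16 and 92 lower. The 2 AGO9 libraries differed most at these sizes, with a Pearson correlation across features of 0.840 at 21 nt and 0.983 at 24 nt. At 21 nt miRNA loci summed to 68394 and 4674.97 RPM in them. Without AGO9 replicate 1, 690 features were lower at 21 nt and 544 at 22 nt. With structural RNA, miRNA and organellar features left out of the totals, 2242 were lower at 21 nt and 2133 at 22 nt.

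Whether the excess at a feature was unequal between sizes was tested on the log2 difference between its 24 nt and 21 nt reads in each library. Of 17020 features, 12205 had a larger 24 to 21 nt difference in the AGO9 IP (71.7%) and 33 a smaller one (0.194%). At TEs 10202 of 12233 did and 0 went the other way, with a median of 3.03. At all 8 TAS loci the 24 to 21 nt difference was larger in the AGO9 IP, as it was at 61 of 153 miRNA loci. A fall in 21 nt reads alone gives such a result. The median log2 difference at 21 nt was -3.65 at TAS loci and -2.76 at miRNA loci, though none was called. At 24 nt, 0 of 6 tested TAS loci were called. MIR845a, counted here as larger, had no 24 nt read in these 4 libraries. At tRNA genes 7 of 466, at plastid genes 8 of 127 and at rRNA genes 0 of 3 had a larger difference. Each library was also centred on its median 24 to 21 nt difference, taken over features with reads of both sizes in every day 7 library. After this, 804 features had a larger and 11347 a smaller difference, and the median over all features was -1.97.

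**Figure D5:**
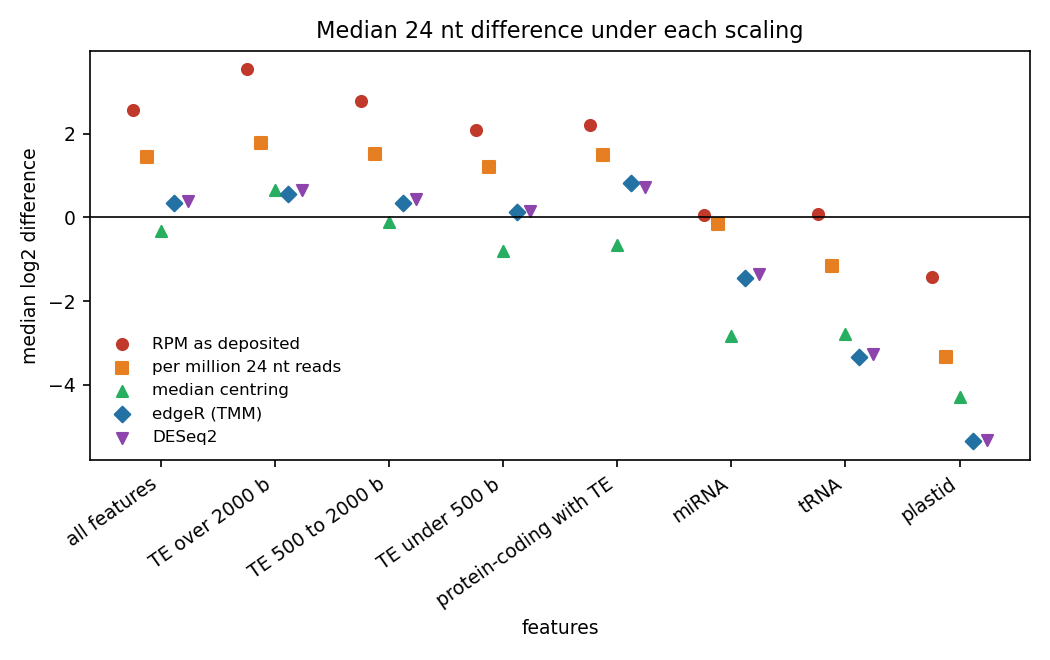
Median log2 difference of 24 nt reads, AGO9 IP minus GFP-only IP (y axis), for groups of features (x axis) under 5 scalings, 1 symbol each. The median of all features falls from 2.57 on RPM to -0.32 after median centring, and plastid genes, tRNA genes and miRNA loci lie below all features under every scaling.

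The 24 nt cargo was set beside that of AGO5 at the same age and beside the same contrast at day 35. AGO9 and AGO5 were compared with the same GFP-only background. Of 14054 features, 5960 were higher with AGO9 than with AGO5 (42.4%) and 428 lower (3.05%), but with edgeR 53 were higher and 472 lower. The excess of AGO9 over GFP alone was larger at day 7 than at day 35 at 2101 features (14.9%) and smaller at 904 (6.43%), and with edgeR at 128 and 2128. The tissue at day 35 was not the shoot apex but meristems of inflorescences and flowers together with young buds, so the effects of age and tissue cannot be told apart. MIR829 had 87.8 and 19.0 RPM with AGO9 at day 35 and 0 and 5.53 RPM with GFP alone, and its excess did not differ past the threshold between ages (difference of log2 values 0.16, limma adjusted p = 0.94).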

How the data were processed

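Each library's values were deposited by the authors as RPM per feature for 21, 22, 23 and 24 nt reads. Per the submitters' processing notes the tools were cutadapt 1.18, Bowtie2 2.3.5.1 and featureCounts (Subread 2.0.1) with TAIR10, whose roles and settings are not given in the sources used here. All sizes were taken as the sum of the 4 size columns. Features comprised 31189 TEs, 33900 nuclear genes and 296 organellar genes. Of the nuclear genes, 33899 had the coordinates of the RefSeq annotation of TAIR10.1, which gave names, miRNA sequences and overlaps, and all 325 miRNA loci matched. A row with no plant feature and 0 reads was left out. Of 80 value columns, 64 were used. Every RPM value was a whole multiple of the value of 1 read (100% within 0.001), so reads could be recovered for edgeR and DESeq2.

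For each size a feature was tested where its mean over the 16 libraries reached 1 RPM. The model was a limma 3.58.1 fit in R 4.3.3 to log2(RPM + 1), with 8 groups, 8 residual degrees of freedom, moderation with a trend and BH adjustment at 0.05. The comparison of 24 with 21 nt reads used the difference of both log2 values, without a trend. edgeR 4.0.16 and DESeq2 1.42.0 were alternatives, as were other scalings (each size's own total, median centring, and totals without structural RNA, miRNA and organellar features), filters of 10 RPM and none, a pseudocount of 0.1, the 4 libraries alone, a replicate block, and leaving out each library. Single shares were tested with an exact permutation test (scipy 1.17.1).

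On simulated counts with 200 of 14054 features changed 16-fold at 24 nt, limma recovered 81% with 9 false calls, and edgeR 74% with 5. For 21 nt, with 6713 features, the values were 75.5% with 7 and 59% with 3. Without a change, limma made 0 calls at either size. In the measured libraries, however, limma called 11548 of the 14054 features higher at 24 nt. The simulation changed far fewer features, so it cannot give the recovery or false calls under so broad a shift. It also cannot decide between the scalings.

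Libraries with the same replicate number did not deviate together (correlation -0.179 to 0.036), so numbers were not taken to pair libraries. The features named are up to 4 per size and direction with the largest log2 difference among those past the threshold, with a mean of at least 10 RPM over the 4 libraries and no overlap between groups. To these were added the 4 most abundant 24 nt features, and members of the lists of miRNA, TAS, tRNA, rRNA, organellar, TE, ARGONAUTE and methylation-regulated genes. The 9 ARGONAUTE genes found gave 0 calls among 3 tested at 24 nt and 1 call, AGO2, among 7 over all sizes. The comparison, its members and these lists were chosen with earlier results of these data known.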

Additional observations from a re-analysis of the deposited data

Results flagged for a closer look

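At 9 of the named features the excess of AGO9 over GFP alone differed between day 7 and day 35, by limma's test of the difference (day 7 minus day 35, log2 scale). Tissue and age changed together, the day 35 GFP-only libraries were shallow, and neither was tested as a source. AT5TE39905 had the largest positive difference, 4.59 (adjusted p = 0.00198): at day 35 it had 1.54 and 0.622 RPM with AGO9 and 0 and 0 RPM with GFP alone, against 126 and 217 RPM with AGO9 at day 7. AT3TE59535 differed by 3.57 (adjusted p = 0.0121), with 8.15 and 8.96 RPM at day 35 against 3.07 and 0 RPM. AT1G42570 differed by 3.89 (adjusted p = 0.0216), with 12.5 and 5.22 RPM at day 35 against 0 and 5.77 RPM. Over all sizes AT2G13145 differed by 4.07 (adjusted p = 0.0132), with 24.1 and 42.7 RPM at day 35 against 7.82 and 43.7 RPM, so its AGO9 values were alike at both ages and its GFP-only values were not. MIR5642a at 24 nt differed by 2.36 (adjusted p = 0.0237), with 9.004 and 13.7 RPM at day 35 against 10.9 and 16.3 RPM.

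LHB1B1 at 24 nt differed by -4.72 (adjusted p = 0.0158): it had 125 and 71.0 RPM with GFP alone at day 7 and 0 and 0 RPM at day 35. MIR157c at 24 nt differed by -2.82 (adjusted p = 0.00239) and also had no read with GFP alone at day 35. AT3G25795, the TAS4 locus, differed by -3.13 over all sizes (adjusted p = 0.0178), with 0.0858 and 0 RPM at day 35 against 0.559 and 0 RPM. AT2G01020, an rRNA gene, differed by 4.07 at 24 nt (adjusted p = 0.0253), with log2 differences of -1.88 at day 7 and -5.95 at day 35. At day 35 it had 44.5 and 190 RPM with AGO9 and 4806 and 6848 RPM with GFP alone.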

How the results depend on the processing

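The direction at 24 nt depended on the scaling, and the cause was not tested. With median centring 1609 features were higher and 4304 lower. With each size scaled to its own total 5005 were higher and 676 lower. Without structural RNA, miRNA and organellar features in the totals 469 were lower. With edgeR 719 were higher and 826 lower, and with DESeq2 2056 and 1233. A filter of 10 RPM, which tests fewer features, left 4847 higher and 99 lower. No filter gave 17298 higher and 446 lower of 50424 features (median 0.080), and a pseudocount of 0.1 gave 104 lower. Leaving out 1 library gave 10210 to 10670 higher and 44 (without AGO9 replicate 2) to 393 lower (without GFP-only replicate 1).

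Over all sizes median centring gave 1771 higher and 4231 lower, and totals without structural RNA, miRNA and organellar features gave 6569 and 1358. edgeR gave 640 higher, DESeq2 1975 higher and 2325 lower, the filter of 10 RPM 5137 and 435, and a pseudocount of 0.1 gave 442 lower. Leaving out 1 library gave 110 (AGO9 replicate 2) to 624 lower. Comparing 24 with 21 nt reads, median centring gave 804 higher and 11347 lower, and leaving out 1 library gave 16 to 78 lower.

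At 21 nt, calls higher were 15 with median centring, 3 with each size's own total, 11 with edgeR, 12 with DESeq2 and 1 with no filter. Calls lower were 2242 without structural RNA, miRNA and organellar features, 140 with no filter, and 0 to 690 on leaving out 1 library. At 22 nt median centring gave 850 higher and 40 lower, DESeq2 164 and 16. Totals without structural RNA, miRNA and organellar features gave 2133 lower, the filter of 10 RPM 526, and leaving out 1 library 0 to 544. At 23 nt median centring gave 3 higher, each size's own total 2120 higher and 8 lower, DESeq2 391 and 92, and no filter 9 and 92. Totals without structural RNA, miRNA and organellar features gave 15 lower at 23 nt, and leaving out 1 library 0 to 6. Among the runs that left out 1 library, the counts of 690 and 544 came without AGO9 replicate 1.

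Against AGO5, each size's own total gave 680 higher, edgeR 53 and a pseudocount of 0.1 gave 2891. For the difference between ages each size's own total gave 1202 higher, edgeR 128 higher and 2128 lower, and a pseudocount of 0.1 gave 1310 higher. Weighting each feature equally moved the difference of 24 nt shares to 32.2 points and that of TE shares to 1.98.

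The samples were not paired by number. With the replicate number as a block, 11551 features were higher and 166 lower at 24 nt, and no count of calls moved by more than 1.5 times.

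For 51 values of named features, 706 alternative values were computed, of which 528 kept direction and call, 154 lost the call and 24 changed sign. The sign changes were as follows. Median centring gave -0.48 for FWA, -1.26 for MIR5644, -1.18 for MIR5643a, -1.05 for MIR5645d, -0.84 for MIR5659, -0.77 for MIR5642a and for MIR396a, -0.35 for MIR5643b, -0.16 for MIR8121 and -0.061 for MIR5662. With each size's own total MIR5643a was -0.15. edgeR gave -0.11 for AT2G08986, -0.086 for AT2G07981, -0.51 for MIR5644, -1.45 for MIR5643a, -0.085 for MIR5659, -1.02 for MIR5642a and -0.55 for MIR5643b. DESeq2 gave -0.023 for AT2G08986, -0.000694 for AT2G07981, -0.45 for MIR5644, -1.36 for MIR5643a, -0.94 for MIR5642a and -0.48 for MIR5643b. Leaving out AGO9 replicate 2 ended 26 calls, more than leaving out any other library. A fit to the 4 libraries alone, whose spread is not pooled with other groups, kept 36 of the 51 calls and lost 15. Over all tested features at 24 nt that fit gave 12343 higher and 188 lower. The GFP-only libraries were the shallower ones, so features near their floors of 0.217 and 0.129 RPM have the least certain differences.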
